A study of Mus musculus with 10 samples.

Results

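Chemokine ligands and receptors were followed in RNA-seq of primary adipocyte cultures with and without an adipocyte knockout (KO) of Fam20c. Fam20c is a secretory pathway kinase that phosphorylates secreted proteins. The genes were chosen by name, as every row whose symbol begins with Ccl, Ccr, Cxcl, Cxcr, Ackr, Xcl or Xcr and a digit. Cx3cl1, Cx3cr1 and Cklf were added, and names marked as pseudogenes (-ps) were left out. This rule matched 65 rows, of which 2 were so marked, and left 63 of the 56748 genes in the table. They comprise 39 ligands, 19 signalling receptors, 4 atypical receptors and Cklf. Of the 63 genes, 44 had at least 1 count in the 10 libraries, 19 had none, and 28 had enough counts to be tested.

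The deposited data hold 5 libraries from control cultures (genotype Fam20c-flox) and 5 libraries from Ad-Fam20c–KO cultures (genotype Fam20c-flox/Adipoq-Cre). The paper's figure legend gives a smaller number per group, and all deposited libraries were used here. In both groups, stromal vascular cells of inguinal fat from male mice 6 to 8 weeks old were differentiated for 6 to 8 days with IBMX, dexamethasone, insulin and rosiglitazone in medium with fetal bovine serum, and no other agent was named. Cre was driven by the adiponectin promoter and so was expected in adipocytes only, so that other cells of a culture kept Fam20c, and the control cultures carried no Cre, so that Cre itself and the deletion cannot be told apart. Neither the labels nor the methods say which cultures came from which mice, and the tests therefore measure the spread between these libraries, which may be technical. In bulk RNA, fewer cells of a type and less RNA per cell cannot be told apart.

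Chemokines are small secreted proteins that guide the movement of leukocytes and other cells by way of G protein–coupled receptors. They are named for the spacing of their first cysteines, which are adjacent in CC ligands, 1 residue apart in CXC ligands and 3 residues apart in the CX3C ligand. Atypical receptors bind chemokines without G protein signalling and remove or store them. In fat, chemokines of adipocytes, stromal cells, endothelium and macrophages are known for drawing monocytes and lymphocytes into the tissue in obesity.

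The spacing that names each class could be read from the coding sequences. The stretches below come from the GENCODE M21 transcripts (GRCm38) of the ligands on which the comparison turns, and each runs for 14 codons, of which 4 stand before the first cysteine of the pair. Capitals mark the cysteine codons of the pair. The CXC ligand that fell in KO cultures, Cxcl16 (chr11:70459106-70459147, minus strand, exon 2), is followed by Cxcl14 (chr13:56295894-56296113, minus strand, across the junction of exons 1 and 2), Cxcl13 (chr5:95958652-95958693, plus strand, exon 2) and Cxcl12 (chr6:117171496-117171537, plus strand, exon 2), with 1 codon between the cysteines in each.
Cxcl16: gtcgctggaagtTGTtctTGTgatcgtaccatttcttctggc
Cxcl14: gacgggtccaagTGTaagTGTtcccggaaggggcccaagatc
Cxcl13: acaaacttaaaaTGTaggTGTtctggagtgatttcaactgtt
Cxcl12: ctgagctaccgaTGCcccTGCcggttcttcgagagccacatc

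In the CC ligands the codons are adjacent. They are shown for Ccl6, which fell in KO cultures (chr11:83589362-83589403, minus strand, exon 3), and for the neighbours Ccl2 (chr11:82036494-82036535, plus strand, exon 2), Ccl11 (chr11:82061684-82061725, plus strand, exon 2) and Ccl8 (chr11:82116044-82116085, plus strand, exon 2). Cx3cl1 (chr8:94778039-94778080, plus strand, exon 2) has 3 codons between its cysteines. With 395 and 246 codons, Cx3cl1 and Cxcl16 have the longest coding sequences of the ligands shown, the others having 97 to 148. These are the ligands made with a membrane anchor.
Ccl6: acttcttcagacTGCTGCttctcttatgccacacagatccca
Ccl2: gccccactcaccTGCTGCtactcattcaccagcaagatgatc
Ccl11: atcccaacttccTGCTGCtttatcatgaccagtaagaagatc
Ccl8: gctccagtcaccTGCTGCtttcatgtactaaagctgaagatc
Cx3cl1: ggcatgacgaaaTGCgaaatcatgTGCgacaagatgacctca

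The libraries held 18949106 to 26237825 counts in control and 19883101 to 23291792 in KO cultures. Values are CPM, here counts scaled by library total and TMM factor, and a floor of 3 counts equals 0.114 to 0.158 CPM. The targeted gene, Fam20c, was at 8.86 to 11.9 CPM in control and 6.65 to 7.74 CPM in KO cultures, without overlap (log2 fold change -0.49, SE 0.093, adjusted p = 0.0137). Its level in KO cultures was 71.1% of control. This is a count over the whole gene, so how much intact transcript remained cannot be read from it. The adipocyte markers summed to 39899 to 41196 CPM in control and 41886 to 44020 CPM in KO cultures, with none of the 12 at 0. Control 4 and KO 1 stood apart from the other libraries on the first principal component of all tested genes (23.5% of the variance).

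Chemokine genes took 0.0273% to 0.0387% of the counts of a control library and 0.0238% to 0.0329% of a KO library. Cxcl12, which retains and guides progenitor cells and lymphocytes, alone held 40.1% of these counts. Cxcl13, a B cell attractant, held 10.2%, Cxcl16 7.79%, the scavenging receptor Ackr3 7.70%, Ccl9 5.54% and Ccl6 5.19%. Genes were compared per kilobase of exon, with the exons of all annotated transcripts of a gene joined. The order of mean levels over the 10 libraries was then Cxcl13 (27.1 CPM per kb), Ccl8 (18.4), Cxcl12 (15.0), Ccl7 (9.89), Ccl6 (8.77), Cxcl16 (7.82), Ccl11 (7.35), Ackr3 (7.07), Ccl9 (5.53) and Ccl2 (5.02). This order depends on the joined length, which was 1150 bases for Cxcl13 and 8176 for Cxcl12. Of the 27 pairs of neighbours in the order of the 28 tested genes, the libraries of a pair overlapped for 25 within the controls and 26 within the KO cultures. Cxcl13 and Ccl8 were apart in KO cultures, and Cxcr4 and Cxcl10, and Cx3cl1 and Ccl27a, in controls. Compared within each library, the upper gene of the pair was the higher in all 10 libraries for 2 pairs, Cxcl12 over Ccl7 and Ccl6 over Cxcl16. The lowest tested gene on this scale was Cklf at 0.228 CPM per kb, over 6124 joined exon bases. In CPM it was not the lowest, with a control mean of 1.73 CPM against 0.385 CPM for Ccl19.

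**Figure D1:**
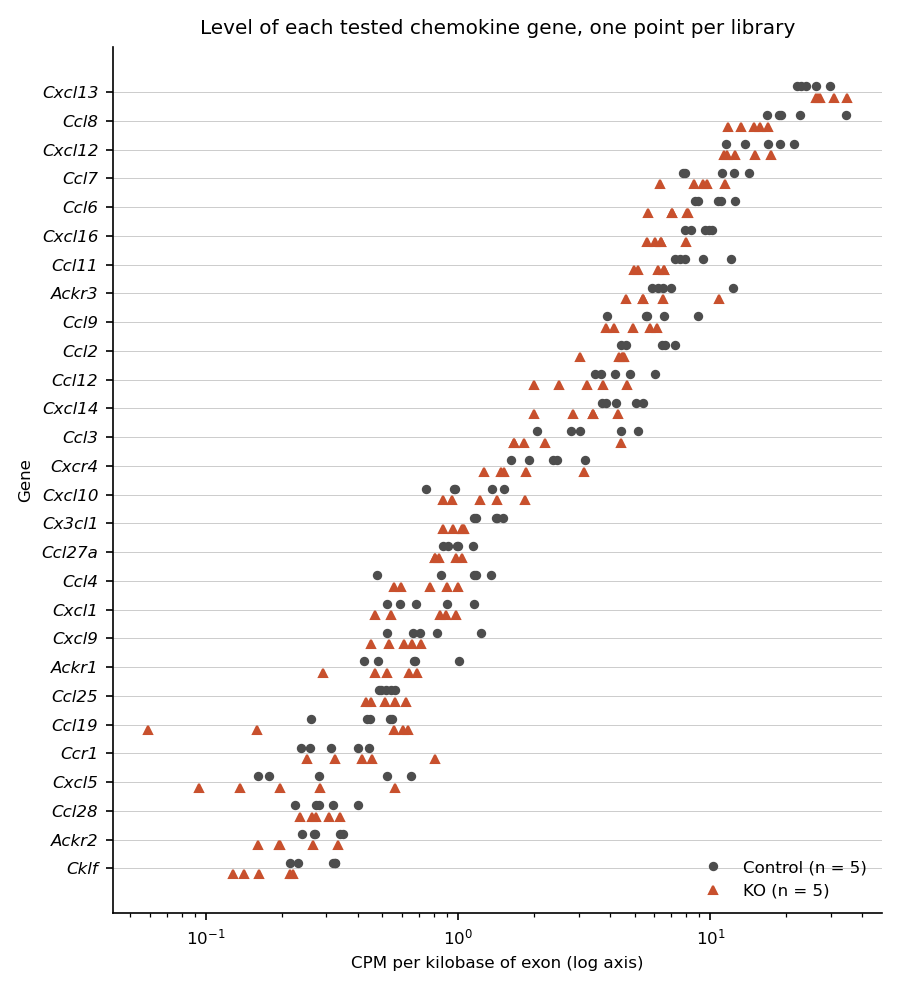
Level of the 28 tested chemokine genes in CPM per kilobase of exon (log axis), with 1 point per library, circles for the 5 control and triangles for the 5 KO libraries, ordered by mean level. Cxcl13, Ccl8 and Cxcl12 stand at the top, and for Ccl6, Ccl11 and Cx3cl1 every triangle lies left of every circle.

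The comparison of KO with control cultures asked which chemokine genes depend on adipocyte Fam20c. Most tested chemokine genes had a lower estimate in KO cultures, and 2 ligands passed the limit. Cxcl16, a membrane-bound ligand that also takes up oxidized lipoprotein, fell to 70.6% of the control level, and Ccl6, a ligand of myeloid cells, fell to 69.2%. At an adjusted p of 0.05 these 2 of 28 tested chemokine genes (7.14%) were lower, against 1.86% of the 14270 genes tested. Endothelial markers were lower in the same KO cultures, with 17 of 20 past the limit and a median log2 fold change of -1.22. Neither ligand passed in an edgeR fit with the mean of these markers as a covariate (adjusted p = 0.471 for Cxcl16 and 0.881 for Ccl6). That fit called none of the 14270 genes, Fam20c included (adjusted p = 0.644). The covariate itself differed between the groups by -1.03 (log2), so the fit cannot decide about the 2 ligands. By edgeR, none of the 28 was higher, against 0.308% of all genes. DESeq2 and limma voom also called none higher, and edgeR gave 1 (Cxcl13) a higher level at an unadjusted p under 0.05, against 4.43% of all genes.

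At an unadjusted p under 0.05, 8 chemokine genes (28.6%) were lower, against 7.46% of all genes. They were Cxcl16, Ccl6, Cx3cl1, Ccl11, Cklf, Ccl8, Ccl2 and Cxcl14. All 5 KO libraries lay below all 5 control libraries for 3 genes (Ccl6, Ccl11 and Cx3cl1, 10.7%), against 2.66% of all genes, and above them for none, against 1.31%. DESeq2, which the study used, was run here on every library and without independent filtering, so its calls are not the study's own. It called 5 lower (17.9%), against 2.52% of all genes, and the 3 beyond those of edgeR were Ccl11 (adjusted p = 0.00741), Ccl8 (0.0316) and Cx3cl1 (0.0316). Among cytokines reduced in KO adipocytes the paper names Ccl6, Ccl8 and Cxcl16, from the same study. The log2 fold change was below 0 for 25 of the 28 (89.3%), against 50.3% of all genes. Its median was -0.34 over the 28 and -0.0008 over all genes. These genes were tested because their counts sufficed, and the shares are no test of the group as a whole.

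**Figure D2:**
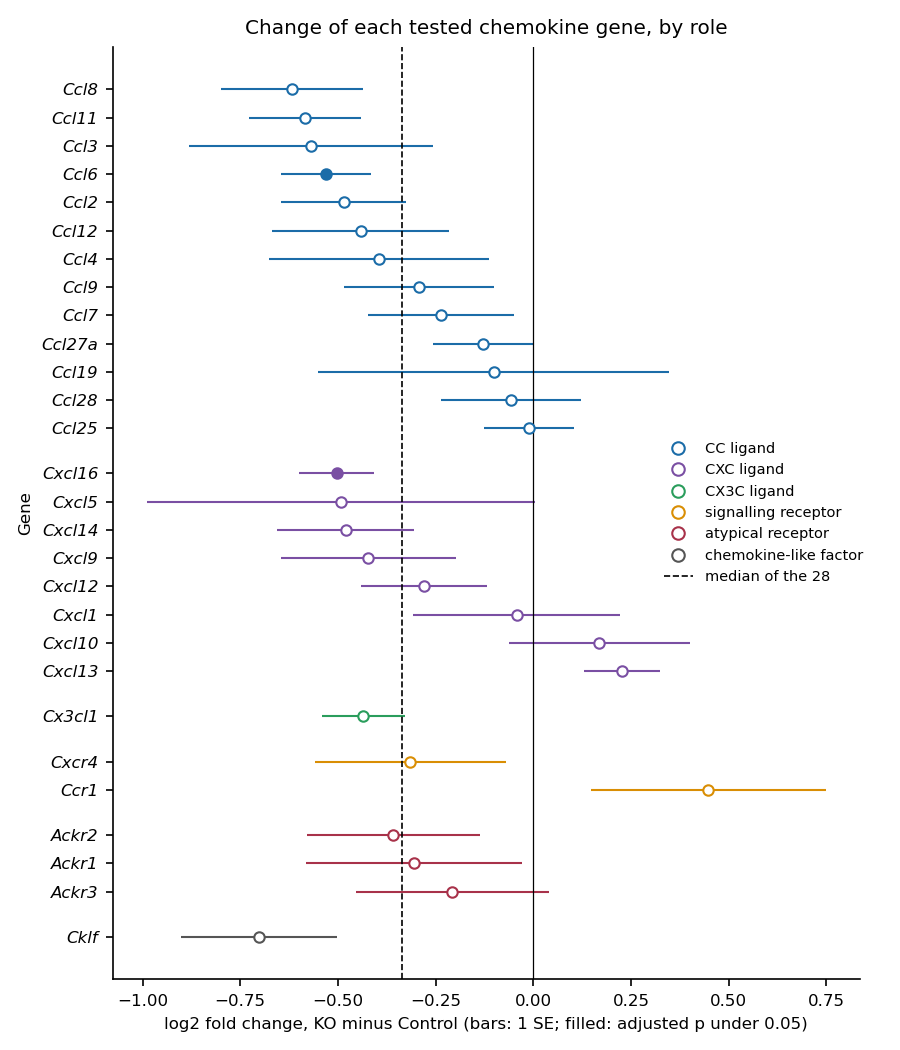
Log2 fold change of KO against control for the 28 tested chemokine genes, grouped by role, with bars of 1 SE and filled circles for an adjusted p under 0.05 (Cxcl16 and Ccl6). The dashed line marks the median of -0.34, and only Cxcl10, Cxcl13 and Ccr1 lie to the right of 0.

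Of the 13 CXC ligands, 11 had counts and 8 were tested, with 6 estimates below 0, 2 above and 1 call. Over all genes, 50.3% of estimates were below 0 and 1.86% were called lower. Cxcl16 (ENSMUSG00000018920.12, chr11:70453983-70459984) was at 24.0, 25.4, 30.7, 28.7 and 29.8 CPM in control libraries 1 to 5 and at 24.1, 19.2, 18.3, 19.2 and 17.0 CPM in KO libraries 1 to 5. Only KO 1 reached the control range, where it met the lowest control library, and the other 4 KO libraries lay below it. The means were 27.7 ± 2.90 and 19.6 ± 2.70 CPM (SD, n = 5), with a log2 fold change of -0.50 (SE 0.096, adjusted p = 0.0145). The call held in 9 of 10 fits that left out 1 library and was lost without KO 2 (adjusted p = 0.051). Of the exon bases of Cxcl16, 18.3% are shared with Zmynd15 on the opposite strand, which had 460 counts to the 5181 of Cxcl16 and a log2 fold change of -0.59 (adjusted p = 0.156); the library kits do not mark strand.

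Cxcl14, a ligand of epithelium and fat with an unsettled receptor, was at 6.82, 7.05, 9.83, 7.74 and 9.26 CPM in control and at 7.89, 3.64, 6.24, 6.28 and 5.19 CPM in KO libraries. KO 1 lay inside the control range and the other 4 KO libraries below it. Its log2 fold change of -0.48 (SE 0.18) did not pass the limit (adjusted p = 0.257).

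Cxcl13 was at 34.3, 30.3, 27.6, 25.3 and 26.2 CPM in control and at 31.4, 30.2, 40.1, 35.7 and 30.6 CPM in KO libraries. KO 3 and KO 4 exceeded every control library, and the other 3 lay inside the control range. Its log2 fold change of 0.23 (SE 0.097, adjusted p = 0.368) did not pass.

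Cxcl12 was at 112, 94.0, 154, 175 and 138 CPM in control and at 142, 103, 92.4, 123 and 94.9 CPM in KO libraries. The groups overlapped over most of their range, and the means of 135 ± 32.4 and 111 ± 20.99 CPM (SD, n = 5) differed by less than the SD of the controls. Cxcl12 had a log2 fold change of -0.28 (SE 0.16, adjusted p = 0.560).

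The interferon-induced ligands Cxcl9 and Cxcl10, attractants of T cells, had estimates on opposite sides of 0. The log2 fold change was -0.42 (SE 0.22, adjusted p = 0.505) for Cxcl9 and 0.17 (SE 0.23, adjusted p = 0.876) for Cxcl10. The neutrophil attractants Cxcl5 (log2 fold change -0.49, SE 0.50) and Cxcl1 (-0.04, SE 0.26) had adjusted p-values of at least 0.800. Neither pair passed the limit.

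Of the 24 CC ligands, 16 had counts and 13 were tested. All 13 estimates were below 0, against 50.3% of all genes, with a median log2 fold change of -0.40. Of the 13, 1 passed, against 1.86% of all genes called lower. The 13 were measured in the same libraries and are not independent. Ccl6 (ENSMUSG00000018927.4, chr11:83587882-83593087) was at 16.1, 15.6, 22.4, 19.3 and 19.7 CPM in control and at 14.4, 12.6, 12.6, 14.6 and 10.1 CPM in KO libraries. Every KO library lay below every control library. The means were 18.6 ± 2.80 and 12.9 ± 1.80 CPM (SD, n = 5), with a log2 fold change of -0.53 (SE 0.12, adjusted p = 0.0324). This call held in 5 of 10 fits without 1 library and was lost without control 3 (adjusted p = 0.0831), control 5 (0.0911), KO 2 (0.0968), KO 3 (0.0752) or KO 5 (0.0732), while the log2 fold change stayed between -0.59 and -0.45.

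Ccl11 (eotaxin, an attractant of eosinophils) was at 8.55, 8.21, 13.0, 7.83 and 10.1 CPM in control and at 7.09, 5.58, 6.68, 7.06 and 5.39 CPM in KO libraries. The groups did not overlap, with the lowest control library close above KO 1 and KO 4. At a log2 fold change of -0.58 (SE 0.14, adjusted p = 0.0602) it did not pass, and it did so only without control 4 (adjusted p = 0.028) among the fits that left out 1 library.

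Ccl8, an attractant of monocytes and T cells, was at 9.75, 9.52, 17.6, 8.61 and 11.5 CPM in control and at 7.64, 6.02, 8.03, 8.66 and 6.77 CPM in KO libraries. KO 4 met the lowest control library, and control 3 stood above all others. Ccl8 had a log2 fold change of -0.62 (SE 0.18, adjusted p = 0.127).

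Ccl2 (MCP-1), the principal attractant of monocytes into fat, was at 5.24, 5.02, 8.23, 7.30 and 7.52 CPM in control and at 4.96, 5.14, 3.45, 5.08 and 5.19 CPM in KO libraries. Controls 1 and 2 were level with 4 of the KO libraries, and controls 3 to 5 lay above all of them. Ccl2 had a log2 fold change of -0.49 (SE 0.16, adjusted p = 0.192). Ccl7, a close relative that attracts monocytes, was at 6.24, 6.34, 8.94, 11.4 and 9.93 CPM in control and at 9.18, 7.51, 5.06, 6.92 and 7.74 CPM in KO libraries. These ranges overlapped for most libraries (log2 fold change -0.24, SE 0.19, adjusted p = 0.709).

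**Figure D3:**
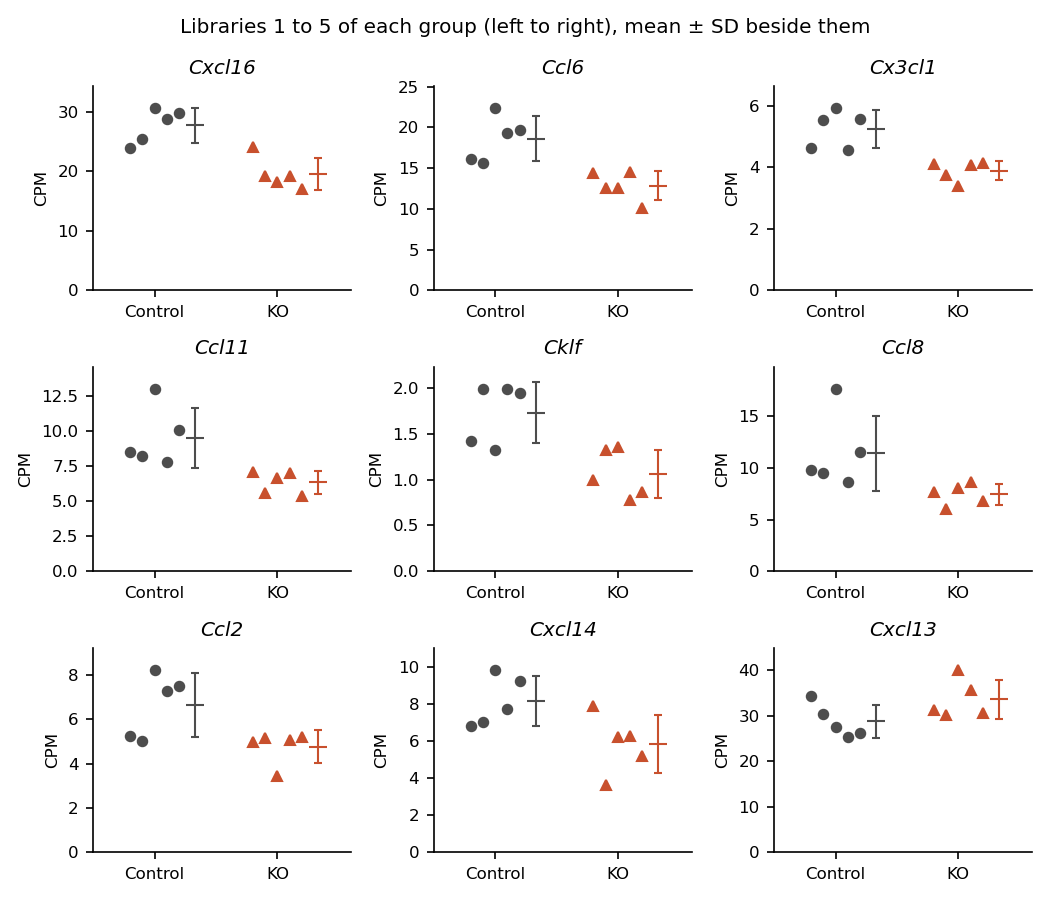
CPM of the 9 chemokine genes with an unadjusted p under 0.05 in each control (circles) and KO (triangles) library, with the mean and SD (n = 5) beside them and axes from 0. The groups do not overlap for Ccl6, Cx3cl1 and Ccl11, and Cxcl13 is the only one with the higher mean in KO cultures.

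The other CC ligands did not pass. Ccl12, a monocyte attractant, had a log2 fold change of -0.44 (SE 0.23, adjusted p = 0.484). The inflammatory ligands Ccl3 and Ccl4 had log2 fold changes of -0.57 (SE 0.31, adjusted p = 0.528) and -0.40 (SE 0.28, adjusted p = 0.670). Ccl9, a myeloid ligand beside Ccl6 on the chromosome, was at -0.29 (SE 0.19, adjusted p = 0.626). The ligands that place lymphocytes in skin, mucosa, thymus and lymph nodes lay near 0. For Ccl27a the log2 fold change was -0.13 (SE 0.13), for Ccl28 -0.06 (SE 0.18), for Ccl25 -0.01 (SE 0.12) and for Ccl19 -0.10 (SE 0.45), with adjusted p-values of 0.813 to 0.989.

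CC ligands lie in clusters on chromosome 11. The monocyte attractant cluster (chr11:82035571-82305690) holds Ccl2, Ccl7, Ccl11, Ccl12, Ccl8 and Ccl1, of which 5 were tested. Their log2 fold changes ran from -0.62 to -0.24, and none passed in edgeR, although 4 of them had KO means at 65.2% to 73.6% of control. The second cluster (chr11:83525778-83664683) holds Ccl5, Ccl9, Ccl6, Ccl3 and Ccl4. Its 4 tested ligands had log2 fold changes of -0.57 to -0.29, with the 1 call for Ccl6. Cxcl5 and Cxcl1, from a cluster on chromosome 5 (chr5:90759360-90905938), were at -0.49 and -0.04.

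Cx3cl1 (fractalkine), a membrane-bound ligand that adheres monocytes and is shed in soluble form, was at 4.62, 5.55, 5.93, 4.54 and 5.58 CPM in control and at 4.12, 3.73, 3.40, 4.08 and 4.12 CPM in KO libraries. No KO library reached the control range. The means were 5.24 ± 0.623 and 3.89 ± 0.317 CPM (SD, n = 5), the smallest spread relative to the mean among the KO values of the 9 genes plotted. The log2 fold change was -0.44 (SE 0.11, adjusted p = 0.0596), and it passed without control 4 (adjusted p = 0.0299).

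Cklf, a chemokine-like protein of the CMTM family rather than a cysteine-pair chemokine, was at 1.42, 1.99, 1.32, 1.98 and 1.94 CPM in control and at 0.992, 1.32, 1.35, 0.779 and 0.865 CPM in KO libraries. Control 3 met KO 2 and KO 3, and the remaining libraries did not overlap. Its log2 fold change of -0.70 (SE 0.20) had the largest size of the 28 genes and rested on 310 counts in all, and it did not pass (adjusted p = 0.115).

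Signalling receptors were scarce. Of 19, 11 had counts and 2 were tested. Cxcr4, the signalling receptor of Cxcl12, was at 3.46, 2.93, 4.47, 5.75 and 4.31 CPM in control and at 5.71, 2.68, 3.36, 2.75 and 2.29 CPM in KO libraries, a log2 fold change of -0.32 (SE 0.25, adjusted p = 0.707). Ccr1, the receptor of Ccl6, Ccl9, Ccl3 and Ccl7, was at 0.734, 0.675, 1.13, 1.26 and 0.888 CPM in control and at 2.28, 0.922, 1.18, 1.28 and 0.713 CPM in KO libraries. KO 1 lay above the rest and the other KO libraries spanned the control range, giving a log2 fold change of 0.45 (SE 0.30, adjusted p = 0.637).

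The atypical receptors had lower estimates without a call. Ackr3, which binds and clears Cxcl12, was at 20.8, 19.6, 21.6, 41.3 and 23.4 CPM in control and at 36.3, 21.8, 18.0, 15.5 and 18.1 CPM in KO libraries. Control 4 and KO 1, the pair that stood apart over all genes, were the highest of their groups here. The same held for Cxcl12, Ccl7, Ccr1, Cxcr4, Ccl3 and Cxcl5. Without both, the log2 fold change of Ackr3 was -0.22 (adjusted p = 0.299), near the -0.21 (SE 0.25, adjusted p = 0.843) of all libraries. Ackr3 exceeded Cxcr4 per kilobase by 2.61 to 4.39 times in every library. Ackr1, an atypical receptor of venular endothelium and red cells, was at -0.31 (SE 0.28, adjusted p = 0.763), and Ackr2, a scavenger of inflammatory CC ligands, at -0.36 (SE 0.22, adjusted p = 0.597). Exons overlap another gene for 5 of the tested genes. Ackr1 shares 25.7% of its exon bases with Cadm3 on the same strand, and besides Cxcl16 the others are Cxcl10 with Art3 (5.91%), Ccl25 with Elavl1 (2.74%) and Ccl27a with Il11ra1 (0.337%), on opposite strands.

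Another 16 genes had counts but too few to test, 8 of them with 10 or more counts over all libraries and 8 with 1 to 9. Ccl5 (RANTES), a T cell attractant, had 0, 2, 3, 3 and 2 counts in control and 2, 2, 4, 0 and 2 counts in KO libraries, so that no difference was detectable at this depth. Ccr3, the eotaxin receptor, had 2, 1, 0, 0 and 1 counts in control and 3, 1, 4, 3 and 3 counts in KO libraries, or 4 against 14 in all, and in a fit without a filter it had an adjusted p of 0.545. Cx3cr1, the receptor of Cx3cl1, had 0, 3, 3, 1 and 0 counts in control and 5, 1, 3, 0 and 2 counts in KO libraries. These values are at or near the floor. Cxcl2 (92 counts), Ccr10 (42), Ackr4 (33) and Cxcr3 (12) also had counts in both groups, with adjusted p-values of 0.668 to 0.890 without a filter.

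No count was found for 11 ligands and 8 receptors. The ligands were Ccl1, Ccl17, Ccl20, Ccl21b, Ccl21d, Ccl22, Ccl26, Ccl27b, Cxcl11, Cxcl15 and Xcl1. Of these, Cxcl11 is annotated as a polymorphic pseudogene. The receptors were Ccr4, Ccr6, Ccr7, Ccr8, Cxcr1, Cxcr5, Cxcr6 and Xcr1, which are mainly receptors of lymphocytes, dendritic cells and neutrophils. A count of 0 allows up to 3 counts in a library, or 0.158 CPM in the smallest. Ccl21b, Ccl21d and Ccl27b are near-identical copies of Ccl21a and Ccl27a, so that the division of reads among them is uncertain.

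Ligands and their signalling receptors were seldom found together. The pairs listed signalling receptors and, of the atypical receptors, only Ackr3. Ackr1 and Ackr2 were tested but stood in no pair. Of 32 ligands with a listed receptor, 21 were tested, and for 5 of these a listed receptor was tested too. These 5 were Cxcl12, with Cxcr4 and Ackr3, and the Ccr1 ligands Ccl6, Ccl9, Ccl3 and Ccl7. For 8 tested ligands, every listed receptor had at most 1 count in the 10 libraries together. Cxcl16 with 5181 counts, Cxcl13 with 6812 and Ccl8 with 2062 stood against 0 counts of Cxcr6, Cxcr5 and Ccr8. Ccl2 and Ccl12 stood against 1 count of Ccr2, found in KO 3, while Ccl11 with 1743 counts stood against 18 of Ccr3.

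The libraries of a group differed in their chemokine levels as a whole. Control 3 was the highest of the 10 libraries for 11 of the 28 genes, with Ccl8, Ccl11, Ccl6 and Cxcl16 among them, and KO 5 was the lowest for 9 and KO 3 for 8. Within the controls, control 2 was the lowest for 14 genes, and within the KO cultures KO 1 was the highest for 12. Control 4 was highest for 6. The calls for Cxcl16 and Ccl6 both held without control 4 and KO 1, with log2 fold changes of -0.57 (adjusted p = 0.00245) and -0.56 (adjusted p = 0.0347), and Ccl11 and Cx3cl1 then passed as well.

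**Figure D4:**
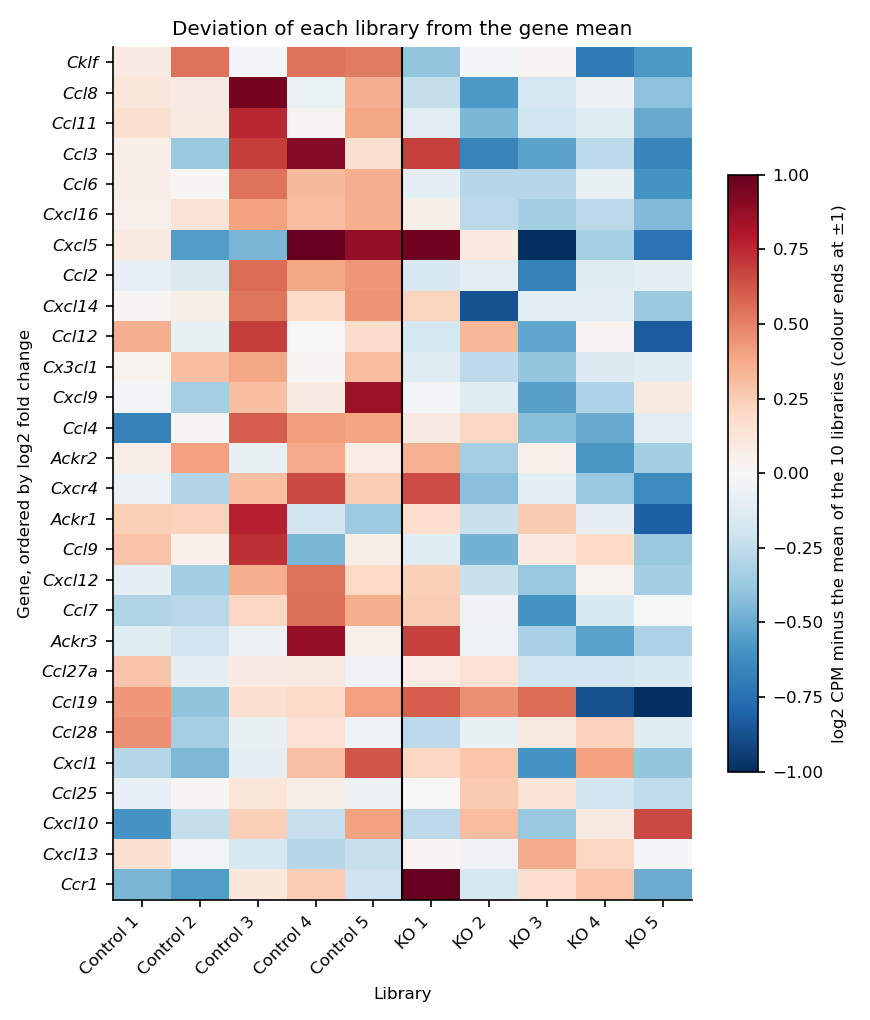
Log2 CPM of each library minus the mean of the 10 libraries for the 28 tested chemokine genes, in colour from -1 (blue) to 1 (red), ordered by log2 fold change. Control 3 is red over most of the upper rows and KO 5 blue, while control 4 and KO 1 share red cells for Ccl3, Cxcl5, Cxcr4 and Ackr3.

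Promoter windows of 250 bases before the start (RefSeq, GRCm38.p6) were at hand for 48 of the 63 genes, 22 of them tested with 25 windows, and were searched for the letters of 5 motifs. The TATA box letters TATAAA on the gene's strand stood in 9 of these 25 windows, of 9 genes (Ackr3, Ccl12, Ccl25, Ccl8, Ccl9, Cx3cl1, Cxcl13, Cxcl9 and Cxcr4), and in 7.59% of all 32851 windows. The NF-kB letters GGNNTTTCC, on either strand, stood in 4 windows (Ccl9, Cxcl1, Cxcl10 and Cxcl9), against 4.93% of all windows. The interferon response letters AAANNGAAA were found in 5 (Ccl19, Ccl28, Ccr1, Cxcl10 and Cxcl14), against 9.37%, the AP-1 letters TGANTCA in 3 (Ccl27a, Ccl9 and Cxcl10), against 6.75%, and the STAT letters TTCNNNGAA in 1 (Cxcl14), against 7.02%, each on either strand. The letters of the STAT, NF-kB and interferon response motifs can overlap each other, and a match is a description of the letters only. Windows are shown for Ccl8 (chr11:82114935-82115184, plus strand) and Cxcl13 (chr5:95956689-95956938, plus strand), the ligands of highest level per length, and for Cxcl14 (chr13:56296552-56296801, minus strand). In capitals stand the TATA box letters of Ccl8, 32 bases before the start, and of Cxcl13, 46 bases before it, and the STAT and interferon response letters of Cxcl14, 191 and 171 bases before it.
Ccl8: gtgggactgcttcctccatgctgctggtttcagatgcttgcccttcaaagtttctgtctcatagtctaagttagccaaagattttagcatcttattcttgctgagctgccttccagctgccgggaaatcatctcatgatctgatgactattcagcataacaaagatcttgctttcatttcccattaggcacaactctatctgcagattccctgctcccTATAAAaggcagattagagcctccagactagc
Cxcl13: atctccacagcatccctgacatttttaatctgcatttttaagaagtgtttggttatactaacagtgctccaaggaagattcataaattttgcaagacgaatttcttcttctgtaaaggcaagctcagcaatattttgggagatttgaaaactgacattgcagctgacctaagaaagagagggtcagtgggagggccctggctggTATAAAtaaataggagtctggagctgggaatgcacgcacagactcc
Cxcl14: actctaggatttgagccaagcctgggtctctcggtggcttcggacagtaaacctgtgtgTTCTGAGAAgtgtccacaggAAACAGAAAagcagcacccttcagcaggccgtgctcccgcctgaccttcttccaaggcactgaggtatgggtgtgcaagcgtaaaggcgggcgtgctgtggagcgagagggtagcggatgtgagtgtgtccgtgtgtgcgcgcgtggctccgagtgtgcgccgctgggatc

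Genes around the chemokine pathway mostly did not pass, as was so over all genes, of which 1.86% were lower and 0.308% higher. Of 11 tested chemokine and related genes with other names, 2 were lower. Gpr182, an atypical chemokine receptor of endothelium, had means of 2.26 ± 0.455 and 0.949 ± 0.159 CPM (SD, n = 5) and fell (log2 fold change -1.25, SE 0.19, adjusted p = 0.00292). Cmklr1, the receptor of the adipokine chemerin, fell from 64.0 to 53.7 CPM (log2 fold change -0.25, SE 0.059, adjusted p = 0.046), while the chemerin gene Rarres2 was at 605 and 645 CPM (adjusted p = 0.819). The platelet chemokine gene Pf4 had a log2 fold change of 0.15 (adjusted p = 0.837) and Mif, which signals through Cxcr4 and Cd74, one of 0.14 (adjusted p = 0.663).

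Of 36 tested genes that signal below chemokine receptors, 1 was lower, against 1.86% of all genes, and none was higher. It was the G protein gamma subunit Gng11 (log2 fold change -0.67, SE 0.084, adjusted p = 0.000873). Of 28 genes that process or present chemokines, 1 was lower and 1 higher, against 1.86% and 0.308% of all genes. The heparan sulfate carrier Sdc1 fell from 117 to 98.8 CPM (log2 fold change -0.24, adjusted p = 0.0152). Mmp9, a gelatinase that trims CXC ligands, rose (log2 fold change 1.44, SE 0.32, adjusted p = 0.037), from a mean of 12.1 CPM (SD 5.45) to one of 32.6 CPM (SD 13.1) over 5 libraries each. Adam10 and Adam17, the proteases that shed Cxcl16 and Cx3cl1, had log2 fold changes of -0.03 (SE 0.037) and 0.05 (SE 0.058), with adjusted p-values of 0.866 and 0.825. Of 25 transcription factors and inhibitors that induce or restrain chemokine genes, such as Nfkb1, Rela, Irf1 and Jun, none passed in edgeR, DESeq2 or limma voom, and edgeR gave 1 an unadjusted p under 0.05. Their median log2 fold change was -0.003.

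Markers of other cell types that make chemokines were measured in the same libraries. Over all genes, 1.86% were lower and 0.308% higher. The 20 endothelial markers summed to 231 to 276 CPM in control and 108 to 150 CPM in KO cultures, without overlap. Of these 17 were lower and none was at 0, with a median log2 fold change of -1.22, and the 6 with the lowest adjusted p-values were Cdh5, Robo4, Egfl7, Emcn, Tie1 and Plvap. A fit with the mean of these markers as a covariate, which itself differed by -1.03 (log2) between the groups, left 0 lower and 0 higher of all 14270 genes by edgeR, the chemokine genes and Fam20c (adjusted p = 0.644) included. The log2 fold changes of Cxcl16 and Ccl6 were then 0.55 and 0.24. At an unadjusted p under 0.05 that fit had 4 of the 28 chemokine genes higher, against 7.55% of all genes, and 0 lower, against 5.12%.

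The 20 macrophage markers summed to 1870 to 2788 CPM in control and 1611 to 2641 CPM in KO cultures, and their ranges overlapped. Cd163 was the 1 marker of these that passed (log2 fold change -0.55), and none was at 0. With the macrophage mean as a covariate, Cxcl16 (log2 fold change -0.48, adjusted p = 0.0151) and Ccl6 (-0.50, adjusted p = 0.0263) remained lower, and Ccl11 passed as well (-0.52, adjusted p = 0.0212). The macrophage mean itself differed by only -0.0728 (log2) between the groups. That fit could therefore move the estimates little, and it cannot decide about a part of macrophages in the chemokine values. Lymphoid markers were low. The 12 T, NK and B cell genes summed to 0.637 to 1.41 CPM in control and 0.687 to 0.943 CPM in KO cultures, with Cd3d, Cd3g and Ms4a1 among those at 0, and Lck was the only one tested (0.760 and 0.665 CPM). The 7 neutrophil genes summed to 1.86 to 2.51 and 1.40 to 2.34 CPM, with S100a9 and Retnlg at 0. Only 2 of them, Csf3r and Mpo, were tested, and S100a8 (means 0.259 and 0.0477 CPM) was too low for it. No tested gene of either list passed in edgeR, DESeq2 or limma voom, or reached an unadjusted p under 0.05 in edgeR. Most genes of both lists were not tested.

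Mast cell, stromal and lymphatic markers were measured as well. Of the 6 mast cell genes only Kit was tested, and it was lower (log2 fold change -1.09, adjusted p = 0.0126). The list summed to 6.04 to 11.6 CPM in control and 2.89 to 6.20 CPM in KO cultures. These sums were nearly all Kit, with means of 8.09 and 3.80 CPM. No other gene of the list had a mean over 0.155 CPM in either group, so the sums describe Kit alone. Of 10 progenitor genes, 2 were lower, Pdgfra (log2 fold change -0.31) and Cd34 (-0.92), and the list summed to 1385 to 1622 CPM and 1243 to 1386 CPM. Of 5 lymphatic endothelial genes Flt4 was lower (log2 fold change -1.07), with sums of 64.2 to 80.3 and 56.6 to 78.7 CPM. None of 8 tested pericyte and smooth muscle genes passed in edgeR, DESeq2 or limma voom, 5 of them had an unadjusted p under 0.05 in edgeR, and their list summed to 109 to 141 and 79.3 to 109 CPM. None of the 12 adipocyte genes passed in edgeR, where 4 had an unadjusted p under 0.05, against 2 that passed in DESeq2 and 1 in limma voom. The part of the stromal, lymphatic and mast cell lists in the chemokine values was not tested.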

How the data were processed

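RNA-seq libraries of 5 control and 5 Ad-Fam20c–KO cultures were prepared by the authors with SMARTer v4 and Nextera XT kits, which do not mark strand. Reads were mapped with STAR to GRCm38.p6 (mm10 in the submitters' processing notes), fragments per gene were counted with featureCounts, and the authors deposited raw counts without normalization or pooling. The counting annotation was later than GENCODE M21, since 99.9% of the 52073 shared identifiers carry a higher version; positions and exon lengths were taken from M21 by unversioned identifier.

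Counts were analysed with edgeR 4.0.16 in R 4.3.3 (filterByExpr, minimum count 10, TMM, quasi-likelihood test, Benjamini-Hochberg adjustment over 14270 genes, limit 0.05). Each SE was obtained from the log2 fold change and the square root of its F statistic. Control was the reference throughout, and groups followed the genotype and titles in the labels. Members, marker lists and pathway lists were chosen with earlier results of these data known. Values in every library are given for members with an unadjusted p under 0.05, those the paper discusses, the 5 highest per length, and the receptors of the first; other tested members are named with their fold changes, and of other lists up to 6 genes past the limit. Other genes named with values (Rarres2, Pf4, Mif, Adam10 and Adam17) were chosen after their values were seen.

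Alternatives were DESeq2 1.42.0 without independent filtering, limma 3.58.1 voom with quality weights, RLE size factors, other count filters, a replicate block, marker covariates, and libraries left out. The test was also run on counts simulated from the mean levels and dispersions of these data. Floors cover counting error only, and SEs include the spread between libraries. The values of single genes that the counts of members and lists include are in some cases not reported here. Protein sequences were not used here, and coding bases are shown in their place.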

Additional observations from a re-analysis of the deposited data

Results flagged for a closer look

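In groups of 5 libraries, a library was singled out when its gap to the nearest other library exceeded 0.71 of the group's range (Dixon's 95% value). This was tested in 56 groups, in which chance gives about 2.8, and 3 were found. Ackr3 was at 41.3 CPM in control 4, against 19.6 to 23.4 CPM in the other controls (ratio 0.825). Ccl3 was at 3.37 CPM in KO 1, against 1.27 to 1.70 CPM in the other KO libraries (ratio 0.799), and these are the same libraries that stood apart over all genes. Ccl2 was at 3.45 CPM in KO 3, against 4.96 to 5.19 CPM in the others (ratio 0.868).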

How the results depend on the processing

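By edgeR 2 chemokine genes were lower, against 5 with DESeq2, 4 with limma voom, 4 with no filter on low counts and 4 without control 4 and KO 1 together. With the replicate block edgeR left 0 and with the endothelial covariate 0 (8 and 0 lower at an unadjusted p under 0.05), and with each library left out in turn 0 (without KO 2, with 9 at an unadjusted p under 0.05) to 4 (without control 4). Under all 19 alternatives 0 were higher. Over all genes, 265 were lower and 44 higher, against 164 to 323 and 19 to 119 with 1 library left out, 359 and 125 with DESeq2, 347 and 111 with limma voom, 286 and 51 with no filter, 353 and 145 without control 4 and KO 1, and 193 and 21 with the block, and the endothelial covariate left none in either direction, 0 and 0 by edgeR, with 1808 genes at an unadjusted p under 0.05.

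Whether the library numbers 1 to 5 pair the groups is not stated. Same-numbered deviations from the group means correlated at -0.25 to 0.26. Libraries with different numbers were not set beside them, so these values cannot decide about pairing. Under the block Cxcl16 had an adjusted p of 0.0702 and Ccl6 one of 0.0765.

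The endothelial covariate turned the median log2 fold change of the tested chemokine genes to 0.554 and left Fam20c at -0.554 without a call (adjusted p = 0.644). It turned Ackr1 to 0.677, Ackr2 to 1.22, Ackr3 to 2.601, Ccl2 to 0.249, Ccl3 to 2.76, Ccl4 to 1.99, Ccl6 to 0.236, Ccl7 to 1.31, Ccl11 to 0.148, Ccl19 to 3.32, Ccl25 to 0.553, Ccl27a to 0.113, Cxcl1 to 0.501, Cxcl5 to 3.78, Cxcl9 to 0.670, Cxcl12 to 1.02, Cxcl14 to 0.895, Cxcl16 to 0.554, Cxcr4 to 2.68, Cxcl10 to -0.081 and Cxcl13 to -0.363. The covariate itself differed between the groups by -1.03 (log2), and the cause was not tested.

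With 1 library left out, log2 fold changes crossed 0 for Ackr3 (-0.459 to 0.040), Ccl19 (-0.296 to 0.153), Ccl25 (-0.080 to 0.046), Ccl28 (-0.153 to 0.061) and Cxcl1 (-0.166 to 0.159). Without control 4 and KO 1 this held for Ccl25 (0.007) and Ccl28 (0.032), where Cxcl5 was no longer tested, and with limma voom for Cxcl1 (0.036). Of 526 values of single genes under an alternative, 469 kept their direction and side of the limit, 8 lost and 12 gained a call, and 37 turned. Genes with few counts, such as the receptors, were limited by depth.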
